A study of Sparus aurata with 9 samples.

Results

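Livers of gilthead sea bream (Sparus aurata), a farmed marine teleost, were compared between fish kept with gold nanoparticles (AuNP) at 50 µg/L and fish kept with the same particles at 0.5 µg/L. Both groups were juveniles of about 50 g, exposed through artificial seawater for 24 h. Each comprised 9 fish whose liver RNA was combined into 3 pools of 3 fish, with 1 array per pool. A further 3 pools came from 9 unexposed fish held under the same conditions, and these served here only to add to the estimate of spread and to show where the exposed groups lay. The question was whether a spiking concentration and a concentration predicted for the environment left different transcript levels. Fish were held 10 to a tank in duplicated tanks, and the labels do not say which tank each pool came from, so p-values measure the spread between pools of fish that may share a tank.

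The liver neutralises metals and xenobiotics and secretes most plasma proteins. Gold nanoparticles are commonly used as a poorly soluble model particle, whose handling by liver cells can engage antioxidant, stress and immune transcripts. Which of these transcripts are involved here could not be read. The scanner files identify each probe's target only by a contig or clone name, and 0 of the 15156 target sequences matched a name in the RefSeq gene table of the sea bream assembly fSpaAur1.1. No liver marker could be looked up for the same reason, so the labelled tissue was not checked against markers. The results are therefore given for sequences under the names of the array design, with no gene or pathway.

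The sequences described are those that could be read on more than 1 probe. A probe was kept when most of its spots were well above background on all 3 arrays at 50 µg/L or on all 3 at 0.5 µg/L, which held for 7678 of 28793 probes. Of the 15156 sequences on the array, 4161 had at least 1 kept probe and were tested, and 1991 had 2 or more and are the subject here. These 1991 held 5508 kept probes: 485 sequences had 2, 1486 had 3 and 20 had 4. By the form of their names, 611 were cDN clones, 53 were SCT clones, 754 were numbered contigs, 546 were contigs of the Seabream CL series and 26 of the Mackenzie series, and 1 had another name. A sequence's level is the mean over its kept probes of the log2 processed signal minus the array's 75th percentile, so a level of 0 equals that percentile.

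The arrays at 50 µg/L had 8468, 9547 and 7993 probes well above background, and those at 0.5 µg/L had 10554, 8887 and 7036. The share of probes ran from 24.4% in pool 3 to 36.7% in pool 1, both at 0.5 µg/L. On the arrays with the fewest, the 75th percentile used for scaling thus lay near the edge of signal well above background. Of the 5508 probes of the 1991 sequences, between 4999 (pool 3 at 0.5 µg/L) and 5462 (pool 2 at 50 µg/L) were well above background on each exposed array. No spot was saturated. The median SD between pools over the 1991 sequences, on the log2 scale, was 0.25 among 50 µg/L pools and 0.23 among 0.5 µg/L pools. For the 1665 probes with 2 spots, the median SD between the spots was 0.06 in each exposed group. With 3 arrays a group, precision is limited by that number.

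Most of the 1991 sequences differed little between the 2 concentrations. The median log2 difference, 50 minus 0.5 µg/L, was -0.02, beside -0.09 over all 4161 sequences tested. The quartiles over the 1991 were -0.29 and 0.25, and 1624 (81.6%) were within 1.5-fold. The 95% interval of the difference lay inside 2-fold in both directions for 1422 sequences (71.4%). A measured difference of 2-fold or more was seen for 91 (4.57%), 61 of them higher and 30 lower at 50 µg/L, beside 4.11% of all sequences tested. These values hold for that scaling only. With arrays scaled to the added spike-in RNA, the median log2 difference of the 1991 was 0.56.

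A set of 72 sequences passed the test between the concentrations (limma over all 9 arrays, adjusted p under 0.05 over 4161 sequences). Of these, 55 rose at the higher concentration and 17 fell. They made up 2.76% and 0.854% of the 1991, beside 2.19% and 0.817% of all sequences tested, so the shares lay near that background. In either direction, 3.62% of the 1991 and 3.00% of all sequences tested passed. The 55 that rose did so by a median of 2.27-fold, with a range from 1.65-fold to 6.94-fold. The 17 that fell did so by a median of 1.95-fold, from 1.70-fold to 4.29-fold. The filter by signal enters these counts and folds. It kept 19 of the 55 only through the arrays at 50 µg/L and 3 of the 17 only through those at 0.5 µg/L, which favours such differences. All kept probes passed in both groups for 21 of the 55 and 12 of the 17. The SE of these 72 log2 differences had a median of 0.21 and did not exceed 0.47. At an unadjusted p under 0.05 there were 484 of the 1991, 250 higher and 234 lower, where 99.55 would be 5% of them, beside 23.1% of all sequences tested.

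The number of calls changed with the pool left out, which also leaves fewer arrays, and the part of each was not tested. It was 0 when pool 1 or pool 3 at 50 µg/L was left out (smallest limma adjusted p over all sequences 0.0667 and 0.0725, with 443 and 401 of the 1991 at an unadjusted p under 0.05). Leaving out pools 1, 2 and 3 at 0.5 µg/L in turn gave 8, 38 and 6. Without pool 2 at 50 µg/L it was again 72, 64 higher and 8 lower, of which 51 were shared with the full set. Control pools entered through the estimate of spread, and the count was 33 without control pool 2 and 41 without control pool 3. The kept probes stayed those chosen with all exposed arrays, so an exposed pool left out still took part in that choice. Each slide held 1 array of each group. With the slide, which equals the pool number, as a block, 11 of the 72 passed, all higher at 50 µg/L, and with it as a random block 35 passed. With normexp background correction 0 passed (smallest limma adjusted p = 0.0907, with 317 at an unadjusted p under 0.05).

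**Figure D1:**
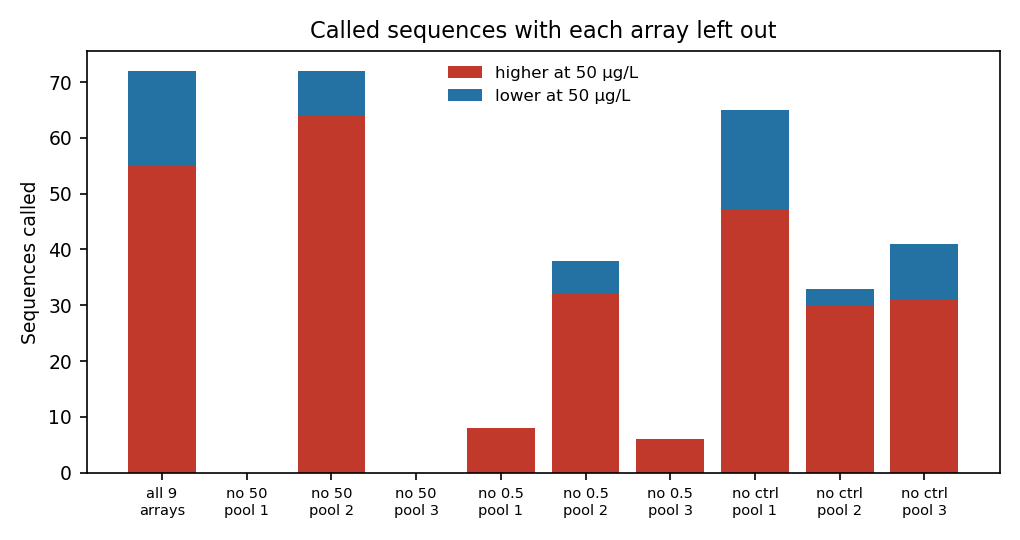
Number of sequences called between 50 and 0.5 µg/L (limma, adjusted p under 0.05) with all 9 arrays and with each array left out; bars start at 0 and stack sequences higher and lower at 50 µg/L. A count of 72 recurs without pool 2 at 50 µg/L, with 51 of the sequences shared, and no bar stands without pool 1 or pool 3 at 50 µg/L. The kept probes are the same for every bar, chosen with all exposed arrays.

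The balance of rises and falls depended on the scaling of the arrays. The split of 55 higher and 17 lower became 69 and 18 with quantile normalization, 111 and 5 with median centring, and 206 and 1 when arrays were scaled to the added spike-in RNA. The median log2 difference of the 1991 sequences moved along, to 0.02, 0.14 and 0.56. Taking the 75th percentile over probes well above background on all 9 arrays gave 113 higher and 18 lower. All these scalings used the same kept probes. The split of 55 and 17 also differed by how the filter was passed. It was 19 and 0 among 84 sequences kept only through 50 µg/L, 0 and 3 among 26 kept only through 0.5 µg/L, and 21 and 12 among 1494 kept through both. The part of the filter in the balance was not tested. The 75th percentile itself stood at -4.87 ± 0.09 relative to the spike-ins in pools at 50 µg/L, against -5.46 ± 0.18 in pools at 0.5 µg/L (log2, SD, n = 3 each). All 3 pools at 50 µg/L, from -4.96 to -4.79, lay above all 3 at 0.5 µg/L, from -5.66 to -5.34. They differed by 0.59, with p = 0.1 in a two-sided exact permutation test, which is as low as 3 against 3 pools can reach. Control pool 1 stood at -4.79, level with the highest pool at 50 µg/L, and control pools 2 and 3 at -5.54 and -5.64. The part of this gap in the calls was not tested.

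**Figure D2:**
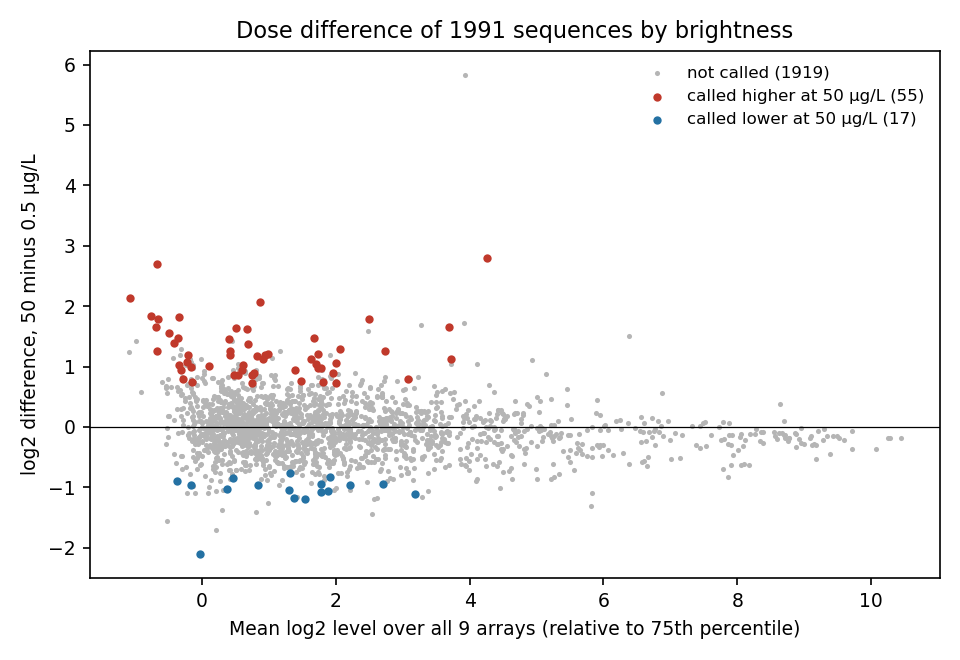
Log2 difference, 50 minus 0.5 µg/L, of each of the 1991 sequences against its mean log2 level over all 9 arrays. Called sequences, 55 higher and 17 lower, are few among the brightest sequences (5 of 498), and the uncalled sequence with a difference of 5.83 is Contig3669.

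Calls were more frequent among dim sequences. The 1991 were put into 4 classes of 497 or 498 by mean level over all 9 arrays. The dimmest held 25 higher and 5 lower calls, the second 13 and 4, the third 13 and 7, and the brightest 4 and 1. The median SE of the difference was similar in each, at 0.22, 0.21, 0.21 and 0.21 from dim to bright. The median absolute difference, on the other hand, was 0.31, 0.28, 0.27 and 0.23. The part of selection by signal in this pattern was not tested. Of the 1991 sequences, 1494 had all kept probes well above background on every exposed array, 387 had mixed probes, 84 passed only through the 50 µg/L arrays and 26 only through the 0.5 µg/L arrays. A sequence of the last 2 kinds was kept through its signal in 1 group, which favours a difference toward that group. The 84 held 19 of the 55 that rose, and the 26 held 3 of the 17 that fell. A mixed sequence also holds at least 1 kept probe that passed through 1 group only. Another 15 of the 55 and 2 of the 17 were mixed. Among the 1494 kept through both groups, 21 rose and 12 fell. Beside these counts, 91 of all 4161 sequences tested were called higher and 34 lower, 3.00% in either direction. When only probes well above background on all 6 exposed arrays were used, a filter added after seeing the data, 1663 sequences had 2 or more probes and 29 were called, 22 higher and 7 lower. For 4 of the 55 that rose, no array at 0.5 µg/L had a kept probe well above background, and their folds are bounds, from at least 1.80-fold to at least 2.74-fold. Such a bound sets the mean at 50 µg/L against the mean over the 0.5 µg/L arrays of the probe's own signal or the lowest signal of any probe well above background there, whichever is higher. With these 4 at their bounds, the median rise of the 55 is 2.17-fold.

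By name series, 19 cDN clones rose and 9 fell, 4.58% of the 611 of that kind. Among numbered contigs 17 rose and 4 fell (2.79%), and among Seabream CL contigs 18 rose and 2 fell (3.66%). The 53 SCT clones held 1 that rose and 2 that fell (5.66%), and no Mackenzie contig was called. The share called was 3.62% of the 1991 and 3.00% of all sequences tested. No test was made between these series.

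The probes of a sequence mostly lay on the same side of 0. All kept probes lay on the same side for 1616 of the 1991 sequences (81.2%). This held for 61.6% of the 938 sequences whose absolute log2 difference was under 0.25, for 97.6% of the 551 from 0.25 to 0.5, for 100% of the 411 from 0.5 to 1 and for 97.8% of the 91 at 1 or more. These classes were formed on the mean of the same probes, so a larger difference by itself favours probes on the same side. The gap between the most distant probes of a sequence had a median of 0.15 on the log2 scale, with quartiles of 0.08 and 0.26. Among the 72 called sequences the median gap was 0.18 and the highest 1.16, and all 201 of their kept probes went the way of the call. The mean of these probes made the call, so this last count is a description. Probes of a sequence share the RNA and the array and are no replicates.

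Setting the first kept probe of each sequence, in the order of the probe numbers, against its last gave a correlation of the 2 log2 differences of r = 0.85 (Spearman rho = 0.87) across the 1991 sequences, which are not independent replicates. Tested probe by probe over all 7678 kept probes, limma called 177 (2.31%), and 138 of these belonged to the 1991 sequences, 114 of them higher. The first probe passed alone for 53 sequences, with a median absolute log2 difference of 1.17. Their last probes, which took no part in that choice, had a median of 1.17 in the same direction, and 52 of 53 lay on the same side. In the other direction, 47 last probes passed, with a median of 1.24, and their first probes had a median of 1.16, with 46 on the same side. Both probes share the RNA and the arrays and passed the same filter by signal. Sequences kept through 1 group only were not set aside, so these counts are a description and no independent check. The exception in the first case was Seabream_2006-01-03-CL1146Contig1, named for its opposite probes after its values were seen, with 0.87 on the first and -0.33 on the last. Of the 72 called sequences, 23 had every kept probe past the threshold alone and 9 had none.

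**Figure D3:**
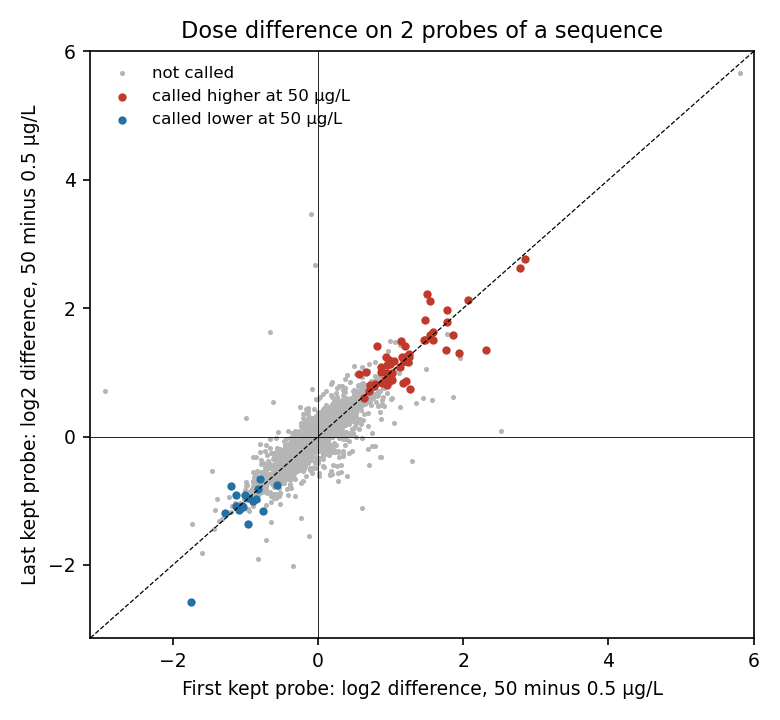
Log2 difference, 50 minus 0.5 µg/L, on the last kept probe against the first kept probe of each of the 1991 sequences; the dashed line marks equal values. The points follow the line (r = 0.85), and the kept probes of a called sequence lie at most 1.16 apart.

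A test of whether the first and last probe differed in their response to concentration called 0 of 1991 sequences (limma on the difference between probes within each array, 0% called, smallest adjusted p = 0.643). Probes between the first and the last, in sequences with 3 or 4 kept probes, did not enter, so the test could not see their disagreement. At an unadjusted p under 0.05 there were 79 sequences, where 5% would be 99.55. The median SE of this difference was 0.15, smaller than the 0.21 of the concentration difference itself. The smallest p was that of the clone cDN01P0003C03.F.ab1, an uncalled sequence whose kept probes differed by -0.80, 2.35 and -0.24. The test compared the first of these probes with the last, which gave a log2 difference between them of -0.565 (SE 0.10). The second probe of the clone, with 2.35, took no part in it and is described only. That second probe stood at 4.18, 1.67 and 5.14 at 50 µg/L and at -2.52, 3.83 and 2.63 at 0.5 µg/L. Pool 1 at 0.5 µg/L thus lay far below the other 5 pools on that probe. The first probe, by contrast, stood at 5.89 in pool 1 at 0.5 µg/L, above 2 of the 3 pools at 50 µg/L. The next smallest p was that of Seabream_2006-01-03-CL1850Contig1, itself among the 55, whose 2 probes had measured log2 differences of 2.32 and 1.35. Its first probe was well above background on no array at 0.5 µg/L and its second on 1. Both values thus rest, wholly or for the most part, on 0.5 µg/L signals not well above background. The sequence passed the filter only through the arrays at 50 µg/L, which favours a higher level there, so its call is a description.

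The clone cDN10P0005N01.F.ab1 had the largest rise of all called sequences. Its level was 5.61, 5.43 and 5.79 in pools 1, 2 and 3 at 50 µg/L, against 3.11, 3.02 and 2.32 at 0.5 µg/L. The 2 groups were far apart, and each of the 3 probes was well above background on all 9 arrays. The 50 µg/L pools averaged 5.61 ± 0.18 and the 0.5 µg/L pools 2.81 ± 0.43 (SD, n = 3 each), a log2 difference of 2.80 with a 95% interval from 1.97 to 3.62 (limma adjusted p = 0.0104). Within slides 1, 2 and 3 the difference was 2.51, 2.41 and 3.47. The controls, at 4.60, 3.41 and 5.01, lay between both groups without overlap. Its call was lost without pool 1 or pool 3 at 50 µg/L (adjusted p = 0.0667 and 0.0725), while the log2 difference stayed at 2.79 and 2.71. With normexp the log2 difference was 2.86 (adjusted p = 0.0907).

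Seabream_2006-01-03-CL5047Contig1 was dim. It passed the filter only through the arrays at 50 µg/L, which favours a higher level there, so its call is a description. Its level was 0.50, 0.54 and 0.86 at 50 µg/L, against -2.15, -1.63 and -2.43 at 0.5 µg/L. All 3 probes were well above background on every array at 50 µg/L and on none at 0.5 µg/L, so that the difference is given, for the processed signal, as at least 2.74-fold higher (measured means 0.64 and -2.07, limma adjusted p = 0.0137). That bound does not hold across background corrections: the measured log2 difference of 2.71 became 1.17 with normexp (adjusted p = 0.0991) and 3.36 with the deposited values (adjusted p = 0.0350). The controls stood at 0.26, -1.56 and -0.42, again between both groups. Without any 1 of pools 1 and 3 at either concentration, its adjusted p lay between 0.0654 and 0.0725, while the measured log2 difference stayed between 2.52 and 2.77.

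The clone SCT849_H04_JP3_4H4_009.ab1 had the largest measured fall of the called sequences. It passed the filter only through the arrays at 0.5 µg/L, which favours a lower level at 50 µg/L, so its call is a description. Its level was -1.87, -0.55 and -0.51 at 50 µg/L, against 1.37, 0.61 and 1.40 at 0.5 µg/L, with no overlap and with pool 1 at 50 µg/L well below the rest. Pools at 50 µg/L averaged -0.98 ± 0.77, against 1.12 ± 0.45 in pools at 0.5 µg/L (SD, n = 3 each), a log2 difference of -2.10 with a 95% interval from -3.05 to -1.16 (limma adjusted p = 0.0380). Its probes were lower by 1.75, 1.96 and 2.58 log2 units and were well above background on 2, 0 and 1 of the arrays at 50 µg/L, so its level there was near background. With normexp the log2 difference was -1.30 (adjusted p = 0.162). Within slides the difference was -3.24, -1.15 and -1.91, and with the slide as a block the adjusted p was 0.0766. The call was lost without pool 1 or pool 3 of either concentration (adjusted p from 0.0753 to 0.123), while the log2 difference stayed between -2.33 and -1.65. The controls, at -0.34, 0.49 and -0.83, overlapped the pools at 50 µg/L.

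Contig2831 fell on brighter probes. Its level was 1.06, 0.63 and 1.26 at 50 µg/L, against 1.87, 2.48 and 2.17 at 0.5 µg/L, and the groups did not overlap. All 3 probes were well above background on each of the 6 exposed arrays. The average was 0.98 ± 0.32 over 50 µg/L pools, against 2.17 ± 0.30 over 0.5 µg/L pools (SD, n = 3 each), a log2 difference of -1.19 with a 95% interval from -1.73 to -0.65 (limma adjusted p = 0.0397). The difference was -0.81, -1.84 and -0.92 within slides 1, 2 and 3, and the adjusted p with the slide as a block was 0.0853. The difference shrank to -0.74 with normexp (adjusted p = 0.210) and to -0.60 with scaling to the spike-ins (adjusted p = 0.290). In the 6 exposed arrays alone the adjusted p was 0.0513. The call was also lost without any 1 of the 6 exposed pools or without control pool 2 (adjusted p from 0.0593 to 0.118), while the log2 difference stayed between -1.34 and -1.01. The controls, at 1.74, 1.57 and 1.09, lay below each pool at 0.5 µg/L, and the first and second of them lay above each pool at 50 µg/L.

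**Figure D4:**
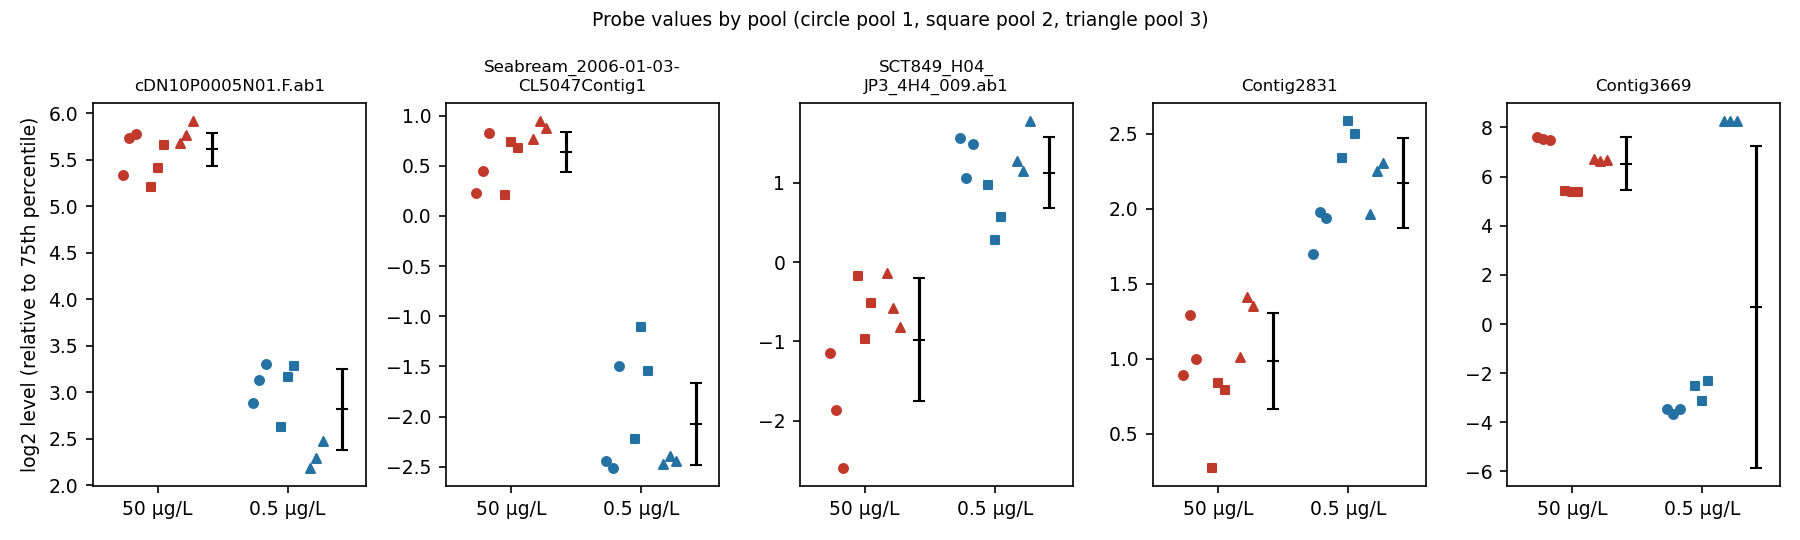
Log2 levels of each kept probe of 5 sequences in the 3 pools at 50 µg/L and the 3 pools at 0.5 µg/L; symbols mark the pool, and bars give the mean and SD of the sequence over the pools (n = 3). The first 4 sequences have pool means apart between the groups, probes of a pool spread most in the dim SCT849_H04_JP3_4H4_009.ab1 and Seabream_2006-01-03-CL5047Contig1, and Contig3669 has pool 3 at 0.5 µg/L above all pools at 50 µg/L.

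The 50 µg/L pools were all above the 0.5 µg/L pools for 292 of the 1991 sequences (14.7%), beside 11.7% of all sequences tested, and all below them for 268 (13.5%), beside 15.3%. All 72 called sequences were among them. Taken within slides, the 55 that rose had a median log2 difference of 1.23, 0.87 and 1.29 on slides 1, 2 and 3, and the 17 that fell one of -1.12, -0.93 and -1.01. The sign of these values follows from the choice of the sequences. Across the 1991 sequences, Pearson's r between within-slide differences was 0.54 for slides 1 and 3, 0.37 for slides 2 and 3 and 0.25 for slides 1 and 2. Their medians were 0.16, -0.20 and 0.02. The arrays at 50 µg/L sat at position 3 of each slide and those at 0.5 µg/L at position 2, so position and concentration cannot be told apart.

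**Figure D5:**
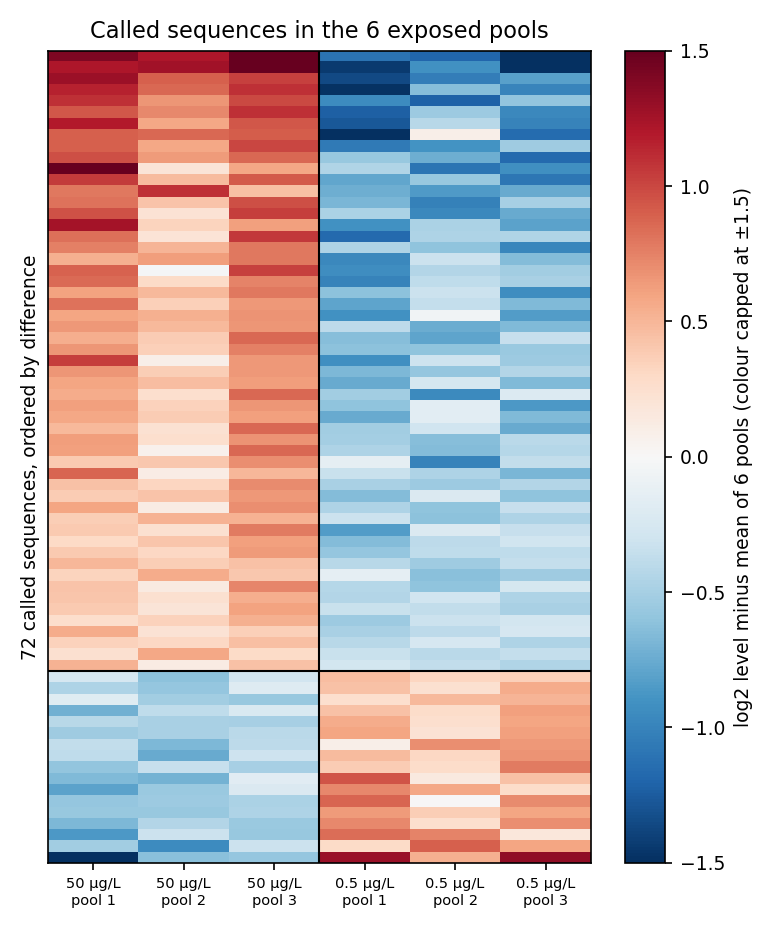
Log2 level of the 72 called sequences in the 6 exposed pools, each relative to its mean over these pools; rows are ordered by the difference, with the 55 that rose above the line and the 17 that fell below it. Among the sequences that rose, the median is 0.62, 0.37 and 0.70 in pools 1, 2 and 3 at 50 µg/L.

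The unexposed pools lay between the 2 concentrations for most called sequences. The control mean was between both group means for 54 of the 55 that rose and 16 of the 17 that fell, beside 51% of the 1991, and choosing sequences for the gap between 2 groups favours this by itself. The 55 had a median log2 difference from controls of 0.61 at 50 µg/L and of -0.51 at 0.5 µg/L. The 17 had medians of -0.55 and 0.45. Both differences share the same control pools. Placing each control pool on the way from the mean at 0.5 µg/L (0%) to that at 50 µg/L (100%), control pools 1, 2 and 3 had medians of 63.5%, 32.4% and 43.6% over the 55 that rose, and 69.6%, 41.6% and 30.2% over the 17 that fell. Control pool 1, the control nearest to 50 µg/L in both directions, was also the one whose 75th percentile relative to the spike-ins was level with the highest pool at 50 µg/L. The part of that ratio in these places was not tested.

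Pool 2 at 50 µg/L carried sequences of its own. In that pool, 14 of the 1991 sequences had every kept probe at least 2-fold above the other 5 exposed pools, and 6 had every kept probe at least 2-fold below them. In the other 5 exposed pools the counts were 0 to 3 above and 0 to 2 below. None of these sequences was among the 72. A pool so far from the others of its own group widens the spread, which by itself works against a call.

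The largest difference of all belonged to a sequence that was not called. Contig3669, chosen here with its values known, had levels of 7.53, 5.38 and 6.66 at 50 µg/L, against -3.51, -2.66 and 8.26 at 0.5 µg/L. Pool 3 at 0.5 µg/L was thus the brightest of all pools, whereas pools 1 and 2 there were near background, with 1 of 3 arrays well above it on each probe. The 3 probes agreed closely, with log2 differences of 5.81, 6.02 and 5.66. The difference of 5.83 had a 95% interval from 0.09 to 11.57 and did not pass (limma adjusted p = 0.211). The sequence passed the filter only through the arrays at 50 µg/L. Its SD was 6.56 at 0.5 µg/L against 1.08 at 50 µg/L, and the interval pools the spread of the groups, so the difference is a description. Within slides 1, 2 and 3 this difference was 11.05, 8.04 and -1.60. Among controls the level was 3.14, 7.62 and 2.98, so that pools of unexposed fish also lay more than 16-fold apart. Only 2 other sequences of the 1991 had a range of at least 16-fold within a group, and neither was called. Seabream_2006-01-03-CL182Contig2 stood at 3.66, 0.15 and 2.53 at 50 µg/L, 2.16, 3.08 and -0.40 at 0.5 µg/L and 3.14, -2.68 and -2.99 in controls. Seabream_2006-01-03-CL615Contig1 stood at 4.22, 7.34 and 2.50 at 50 µg/L, 4.74, 6.08 and 4.54 at 0.5 µg/L and 3.40, 5.83 and 4.84 in controls. Both were likewise named for their range after their values were seen.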

How the data were processed

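The 1-colour scans were quantified by Agilent Feature Extraction 10.7.3.1, per the file headers. The deposited processed signal is a linear, background-subtracted intensity per spot. Per the labels' protocols, 200 ng of total RNA was labelled with Cy3 beside spike-in RNA. The authors' deposited table holds log2 values, which equalled the log2 of the scanner's background-subtracted signal of each spot, unscaled and empty at 0 or less. Its column medians were 7.33, 7.16 and 6.97 at 50 µg/L, 7.01, 6.69 and 7.04 at 0.5 µg/L, and 7.00, 6.58 and 6.55 in controls.

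The 43803 spots that are not controls were put on the log2 scale, and the 75th percentile of their array was subtracted. Outlier spots were left out unless a probe had no other, and spots were averaged per probe and kept probes per sequence. In R 4.3.3, limma 3.58.1 (lmFit, then eBayes) was fitted to all 9 arrays to test 50 minus 0.5 µg/L, with Benjamini-Hochberg adjustment at 0.05. Only this fit was tried on simulated levels of the 1991 sequences, with independent noise and known changes. The filter, the scaling and the averaging of probes were not simulated. The same fit was made on probes and on the difference between 2 probes. Named sequences are the 2 largest rises and falls among called sequences with all probes on 1 side, and the 2 smallest p of the test between probes. Members and lists were chosen with earlier results of these data known. Lists of pathway and cell type genes could not be used, since no sequence had a gene name. The alternatives covered background correction, scaling, filters, flags, blocks, weights, probe summaries, thresholds, the deposited values and each array left out.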

Additional observations from a re-analysis of the deposited data

How the results depend on the processing

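Alternatives that use all probes or other filters change which sequences enter, and the cause of the other changes was not tested. Against 72 called sequences and 138 called probes of these sequences, limma called 0 and 0 with normexp or with no filter on dim probes (317 of 1991 and 484 of 6780 sequences at an unadjusted p under 0.05), 31 and 53 when each probe had to be well above background on all 9 arrays, and 29 and 47 when on all 6 exposed arrays. It called 116 and 256 with median centring, 207 and 510 with spike-in scaling, 131 and 280 with the 75th percentile over probes well above background on all 9 arrays, and 203 and 364 with array weights. It called 31 and 79 with the 6 exposed arrays alone and 35 and 81 with slide as random block. With the deposited values 76 probes passed, while 49 sequences did. With the pool number as a replicate block, 11 sequences and 25 probes passed, and 9 and 12 in the 6 exposed arrays alone; this last fit, the filter on 6 arrays and the percentile over bright probes were added after seeing the data. The numbers mark the slide, but same-numbered pools at 50 and 0.5 µg/L did not deviate together (r = -0.19, -0.11 and 0.09 over the 1991 sequences), and 1 of 3 pools correlated best with its own number. An adjusted p under 0.10 passed 224 sequences (134 higher), and an unadjusted p under 0.01 with 1.5-fold 219 (131 higher). Leaving out each array gave 0 to 72 sequences, 0 to 161 probes and, for the test between probes, 0 to 1. The test between probes, which was not run for the other summaries of probes, called 1 with the 6 exposed arrays alone, 9 at the unadjusted threshold and 0 under the remaining alternatives. The share of sequences with all probes on the same side, 81.2%, was 83.2% with normexp, 83.5% with median centring, 92.8% with spike-in scaling and 48.7% with no filter. The median log2 difference was 0.56 with spike-in scaling and stayed within the spread between slides otherwise. No result changed sign among the 4 sequences named for their rise or fall, and with all 10 spike-ins the ratio differed by 0.46 (exact permutation p = 0.1).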
